A study of Mus musculus with 6 samples.

Results

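Immediate-early genes are transcribed within minutes of a signal at the cell surface, before any new protein is made, and most of them encode transcription factors or proteins that end the response. Here 34 such genes, given as a list of symbols, were followed in tumor-associated macrophages (TAMs). Each of the 34 was found in the count table of 55421 Ensembl genes, and 34 of 34 had at least 10 counts in at least 3 libraries. All 34 were also among the 14469 genes tested. The list was drawn up by function and not by level or change, but with earlier results of these data known. In it, the 11 genes of the Fos, Jun and Klf families (AP-1/Klf genes) are set against the 6 genes of the Egr and Nr4a families (Egr/Nr4a genes).

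The TAMs came from 2 groups of mice with 3 libraries each. Pdcd1f/f mice carry a Pdcd1 gene, encoding the inhibitory receptor PD-1, with both alleles flanked by loxP sites and no Cre. Pdcd1f/fLysMcre mice carry the same floxed alleles and Cre under the lysozyme M promoter, which is active in macrophages, monocytes and neutrophils, so that deletion is not limited to TAMs. Both groups were implanted with M17 tumor cells, named in the study as the MC17-51 fibrosarcoma, and CD11b+F4/80+ cells were taken from the tumors 15 days later. The mice of the study were 8 to 12 weeks old. Tumors of the study were digested with collagenase before sorting, and the time from removal of a tumor to lysis of its cells is not given in the sources used here. Neither the labels nor the methods say whether a library is 1 mouse or a pool, so the spread between libraries may be technical in part.

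In the textbook account, serum response factor with its ternary complex partners, CREB and MEF2 are already bound near these genes and are activated by ERK, calcium and cyclic AMP signals. Fos and Jun proteins pair through leucine zippers into AP-1, Egr proteins are zinc-finger factors that bind GC-rich elements, and Nr4a proteins are orphan nuclear receptors whose activity is set largely by their amount. Klf proteins are zinc-finger factors that shape macrophage activation, Zfp36 proteins bind AU-rich elements and shorten the life of cytokine and immediate-early mRNAs, and Btg proteins restrain proliferation. In macrophages these genes respond to Toll-like receptor ligands, growth factors and adhesion.

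The promoter windows of 6 members are printed here, because the Nr4a genes, Egr2, Jun and Btg2 stand on different sides of the comparison that follows. Each window runs from 250 bases before the transcription start to 50 bases after it, as listed by RefSeq for GRCm38.p6, and is written 5′ to 3′ on the gene's own strand. Capitals mark matches on either strand to a CArG box (the serum response factor element), to the cyclic AMP response element TGACGTCA, to the AP-1 element TGANTCA, to an EGR element (GCGTGGGCG or GCGGGGGCG) or to TGACG, a shorter form of the cyclic AMP response element whose matches overlap those of the full element. TGACG was added after the sequences had been read.
Nr4a1, chr15:101266596-101266895, plus strand: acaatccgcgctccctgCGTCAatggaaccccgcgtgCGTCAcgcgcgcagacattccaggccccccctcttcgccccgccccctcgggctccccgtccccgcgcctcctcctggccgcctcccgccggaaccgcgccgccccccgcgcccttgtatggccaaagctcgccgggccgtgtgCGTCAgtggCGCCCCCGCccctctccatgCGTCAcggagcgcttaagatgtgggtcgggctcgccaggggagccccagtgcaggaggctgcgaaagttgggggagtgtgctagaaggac
Nr4a2, chr2:57123954-57124253, minus strand: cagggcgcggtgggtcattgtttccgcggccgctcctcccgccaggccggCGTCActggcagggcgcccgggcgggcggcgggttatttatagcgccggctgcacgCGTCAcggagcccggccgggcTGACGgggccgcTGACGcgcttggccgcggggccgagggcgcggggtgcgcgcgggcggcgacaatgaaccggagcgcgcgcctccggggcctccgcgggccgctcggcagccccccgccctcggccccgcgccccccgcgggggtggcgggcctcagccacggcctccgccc
Nr4a3, chr4:48045055-48045354, plus strand: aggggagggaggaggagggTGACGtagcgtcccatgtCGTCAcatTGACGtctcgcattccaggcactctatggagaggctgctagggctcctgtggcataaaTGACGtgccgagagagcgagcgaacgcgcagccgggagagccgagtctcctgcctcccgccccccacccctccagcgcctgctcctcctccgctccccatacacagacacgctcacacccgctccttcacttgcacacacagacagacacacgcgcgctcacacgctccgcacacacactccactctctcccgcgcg
Egr2, chr10:67537619-67537918, plus strand: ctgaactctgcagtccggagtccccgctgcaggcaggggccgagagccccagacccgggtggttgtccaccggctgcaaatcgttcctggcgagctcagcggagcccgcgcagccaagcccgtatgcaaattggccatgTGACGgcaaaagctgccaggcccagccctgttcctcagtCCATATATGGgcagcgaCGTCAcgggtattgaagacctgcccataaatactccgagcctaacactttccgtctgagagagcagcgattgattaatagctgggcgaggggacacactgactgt
Jun, chr4:95052173-95052472, minus strand: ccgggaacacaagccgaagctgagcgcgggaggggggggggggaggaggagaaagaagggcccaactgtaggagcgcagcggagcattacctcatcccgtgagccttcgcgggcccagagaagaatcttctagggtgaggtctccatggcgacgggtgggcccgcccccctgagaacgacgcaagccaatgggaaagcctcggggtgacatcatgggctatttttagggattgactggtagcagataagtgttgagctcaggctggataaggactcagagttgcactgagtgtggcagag
Btg2, chr1:134079106-134079405, minus strand: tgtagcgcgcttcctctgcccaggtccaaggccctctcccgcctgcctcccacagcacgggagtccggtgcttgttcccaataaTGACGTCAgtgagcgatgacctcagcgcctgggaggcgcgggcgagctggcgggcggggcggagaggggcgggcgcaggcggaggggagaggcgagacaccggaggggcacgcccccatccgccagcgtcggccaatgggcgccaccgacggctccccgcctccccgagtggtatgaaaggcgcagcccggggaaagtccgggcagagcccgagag

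Of the 34 members, 26 had a window in the table. Egr3, Klf10, Fosl1, Egr1, Myc, Bhlhe40, Zfp36l2 and Ier2 had none. TGACG was found in at least 1 window of 17 of the 26 genes, and in 23% of all 27025 genes with a window (20.8% of 32851 windows). All of Nr4a1, Nr4a2 and Nr4a3 held 4 such matches in their single windows, and 0.255% of all genes had a window with at least 4. Counted from the start, they lay between −200 and −107 in Nr4a2, between −231 and −143 in Nr4a3 and between −233 and −36 in Nr4a1. The printed Egr2 window, 1 of 5 listed for this gene, held the CArG box CCATATATGG from −72 to −63. A CArG box was present in Egr2 and Zfp36 (1.81% of all genes), TGACGTCA in Btg2, Ppp1r15a and Maff (2.03%), TGANTCA in Zfp36l1 and Csrnp1 (8.97%), and an EGR element in 8 genes (Fosb, Fosl2, Nr4a1, Klf2, Klf4, Zfp36, Maff and Mafk, against 3.93%). None of the 5 elements matched exactly in the Jun window. Near matches, such as tgacatca in that window, and MEF2 elements were not searched for. These are matches of letters in the reference, and binding was not measured.

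Total counts ranged from 41833823 to 51417209 per library, and a count of 3 is worth 0.0583 to 0.0717 CPM (counting error alone). Pdcd1 itself was read 10 to 15 times per library without Cre and 7 to 16 times with it, too few to check the deletion. Lyz2, into which Cre is inserted, had 207974 to 225226 and 405 to 465 normalized counts, which separates the libraries as labelled. Because the libraries without deletion also lack Cre, the presence of Cre and the loss of Lyz2 transcript cannot be told apart from deletion of Pdcd1. The macrophage markers Ptprc, Itgam, Adgre1, Csf1r and Cd68 were all detected. Their summed normalized counts were 192010 to 205254 in Pdcd1f/f and 174050 to 176684 in Pdcd1f/fLysMcre TAMs, with Adgre1 (log2 fold change −0.38, adjusted p = 0.00496) and Csf1r (−0.32, adjusted p = 0.0308) lower in edgeR. In the same order, neutrophil markers summed to 6580 to 6745 and 5494 to 5626 (Ly6g at most 2.95), T cell markers to 43.8 to 56.6 and 37 to 48.6, B cell markers to 169 to 209 and 120 to 149, and NK cell markers to 21.3 to 35.8 and 13.8 to 26.7. Dendritic cell markers summed to 221 to 300 and 285 to 359, stromal markers to 3066 to 3328 and 2922 to 3228, and endothelial markers to 1869 to 1988 and 1519 to 1647. Of these lists, 2 of 6 tested neutrophil genes, 1 of 6 stromal genes and 1 of 3 endothelial genes were lower past the threshold. Within each list the estimates lay on both sides of 0. Those above and below were 3 and 3 for neutrophil, 2 and 4 for stromal, and 1 and 2 for endothelial genes. The endothelial median log2 fold change was −0.01, so its lower sum was not shared by the whole list. A lower sum therefore does not show fewer cells of a type. In edgeR 0 of the 7 tested T cell, B cell, NK cell and dendritic cell genes passed it. At an unadjusted p under 0.05, 2 dendritic cell genes were higher and 1 B cell gene lower, the latter also in DESeq2. Of all tested genes, 2.42% were higher and 3.01% lower past the threshold in edgeR. These shares were 12.3% and 11.9% at an unadjusted p under 0.05, and 6.18% and 6.9% in DESeq2. Xist (17318 to 26511 against 8530 to 13137) and the Y-linked Ddx3y (687 to 900 against 2720 to 2980) also separated the genotypes, so that sex cannot be told apart from genotype. Both were read in every library, and the study used males and females in equal numbers. Whether a library holds cells of both sexes was not tested. Pdcd1f/f replicate 1 and Pdcd1f/fLysMcre replicate 2 stood apart from the other 4 libraries. The deviation of their genes from the genotype mean fell with GC content (Spearman rho −0.579 and −0.490 over 14454 genes, against 0.117 to 0.511). Deviations from a genotype mean cancel out within the genotype, so these values are linked. Pdcd1f/fLysMcre replicate 3 deviated about as far the other way (0.499), so these 2 libraries stand apart by the sign of rho only. The part of any of these differences in the results that follow was not tested.

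Levels of the 34 genes spanned a wide range, and per kilobase of exon the Fos gene stood first. With normalized counts divided by exon length, Fos had 30794 per kilobase in Pdcd1f/f TAMs, ahead of Zfp36 (20858), Klf6 (18954), Klf4 (15097), Junb (14802) and Fosb (11199). At the other end were Egr2 (660), Nr4a3 (590), Fosl1 (202) and Egr3 (104). Within the families the levels per kilobase therefore differed widely, from 2750 for Egr1 to 104 for Egr3, and from 5519 for Nr4a1 to 590 for Nr4a3. The exons of 11 of 34 members overlap a gene on the opposite strand, and the strand setting of the counting is not given in the sources used here. Fosl1 shares 1163 of its 2033 exonic bases with Ccdc85b (148 to 229 counts per library), and Jun shares 232 of 3189 bases with Junos (794 to 1114 counts). Zfp36l1 shares 1672 of 2990 bases with Gm26669, and Jund 877 of 1668 with Gm11175 (57 to 141 counts). Junb shares 173 of 2301 bases with Prdx2 (7074 to 8260 counts).

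The first question was which of the 34 genes differed between Pdcd1f/fLysMcre and Pdcd1f/f TAMs. In edgeR's two-sided quasi-likelihood test, with Benjamini-Hochberg adjustment over all tested genes and a threshold of 0.05, 4 members were higher in Pdcd1f/fLysMcre TAMs (Egr3, Nr4a2, Nr4a3 and Bhlhe40) and 3 were lower (Jun, Atf3 and Btg2). The other 27 did not pass. Among all tested genes, 2.42% were higher and 3.01% were lower past the same threshold. Every Pdcd1f/fLysMcre library lay above every Pdcd1f/f library for 9 members and below for 8, while 14.1% and 13.1% of all tested genes were separated in these directions. The estimated change was above 0 for 14 members and below 0 for 20, with a median log2 fold change of −0.09 against −0.0026 over all tested genes. Most members are abundant transcripts, and the shares were not compared with those of other genes of like abundance. In bulk RNA, fewer cells that make a transcript and less of it per cell cannot be told apart.

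**Figure D1:**
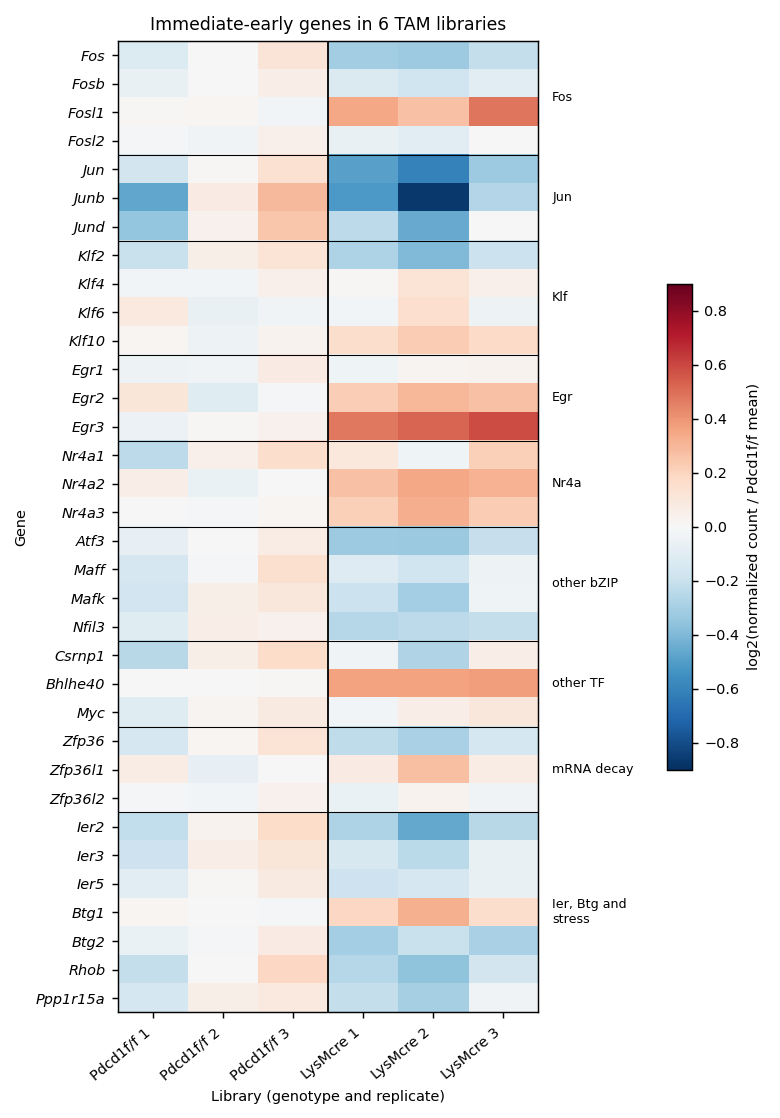
Heat map of the 34 genes (rows, grouped by family) in the 6 libraries (columns, with LysMcre standing for Pdcd1f/fLysMcre), where color gives log2 of the normalized count over the Pdcd1f/f mean. Egr3, Nr4a2, Nr4a3 and Bhlhe40 are red in all 3 Pdcd1f/fLysMcre libraries and Jun, Atf3 and Btg2 are blue in all 3, while Junb also varies within the Pdcd1f/f libraries.

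In the Egr family, Egr3, the least abundant of the 3 per kilobase, rose, and Egr1 and Egr2 did not pass the test. Egr3 (ENSMUSG00000033730, chr14:70077203-70082614, GRCm38), a factor known for restraining T cell activation, had 443, 463 and 470 normalized counts in replicates 1, 2 and 3 of Pdcd1f/f TAMs, against 637, 661 and 689 in those of Pdcd1f/fLysMcre TAMs. The groups were far apart relative to the spread within each. Its mean rose from 459 ± 13.7 (SD, n = 3) to 663 ± 25.9 (SD, n = 3), a fitted increase of 44.7% (log2 fold change 0.53, SE 0.09, adjusted p = 0.00651 in edgeR). Egr2 (chr10:67535475-67542188), which is used in macrophage development and in the alternatively activated state, had 2419, 2076 and 2231 normalized counts in Pdcd1f/f and 2615, 2754 and 2698 in Pdcd1f/fLysMcre TAMs. All 3 libraries with Cre were above the 3 without, but the change did not pass the test (0.26, SE 0.07, adjusted p = 0.0633). It passed in 7 of 18 alternatives, among them DESeq2 (adjusted p = 0.0222) and the GC and length offsets (adjusted p = 0.00344), with adjusted p from 0.00166 to 0.282. Egr1 (chr18:34859823-34864984), the best known growth-factor response gene of the family, had 11949, 12070 and 12972 against 11993, 12522 and 12632 normalized counts. Its groups overlapped fully (log2 fold change 0.01, SE 0.06, adjusted p = 0.948). Within each library the ratio of Egr3 to Egr1 normalized counts was 0.0371, 0.0383 and 0.0362 in Pdcd1f/f TAMs and 0.0532, 0.0528 and 0.0546 in Pdcd1f/fLysMcre TAMs, so that the balance of the family differed in every library.

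In the Nr4a family, Nr4a2 and Nr4a3 rose and Nr4a1 did not pass the test. Nr4a2 (Nurr1, ENSMUSG00000026826, chr2:57106830-57124003) had 5570, 5125 and 5369 normalized counts in Pdcd1f/f and 6428, 6804 and 6662 in Pdcd1f/fLysMcre TAMs, with no overlap. This was a fitted increase of 24% (log2 fold change 0.31, SE 0.06, adjusted p = 0.0163). Nr4a3 (Nor1, ENSMUSG00000028341, chr4:48045153-48086447) had 3539, 3486 and 3573 against 4106, 4421 and 4149 normalized counts. Its Pdcd1f/f libraries were nearly identical and all lay below the others, with a fitted increase of 19.8% (0.26, SE 0.06, adjusted p = 0.0349). Nr4a1 (Nur77, chr15:101254269-101274795), the member known for restraining inflammatory genes in macrophages, had 16432, 20014 and 21654 against 20684, 18826 and 22421 normalized counts. Its lowest value was that of Pdcd1f/f replicate 1, and the groups overlapped (0.09, SE 0.10, adjusted p = 0.606). The ratios of Nr4a2 and Nr4a3 to Nr4a1 overlapped between the genotypes, 0.248 to 0.339 against 0.297 to 0.361 for Nr4a2 and 0.165 to 0.215 against 0.185 to 0.235 for Nr4a3. When each library was corrected for the GC content and length of the genes, Nr4a1 had a log2 fold change of 0.22 (adjusted p = 0.00133), and without Pdcd1f/f replicate 1 one of −0.02 (adjusted p = 0.885), so its change depended on how the libraries were handled. The 3 promoters with 4 TGACG matches each, printed above, thus belong to a pair of genes that rose and to one that did not pass the test.

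**Figure D2:**
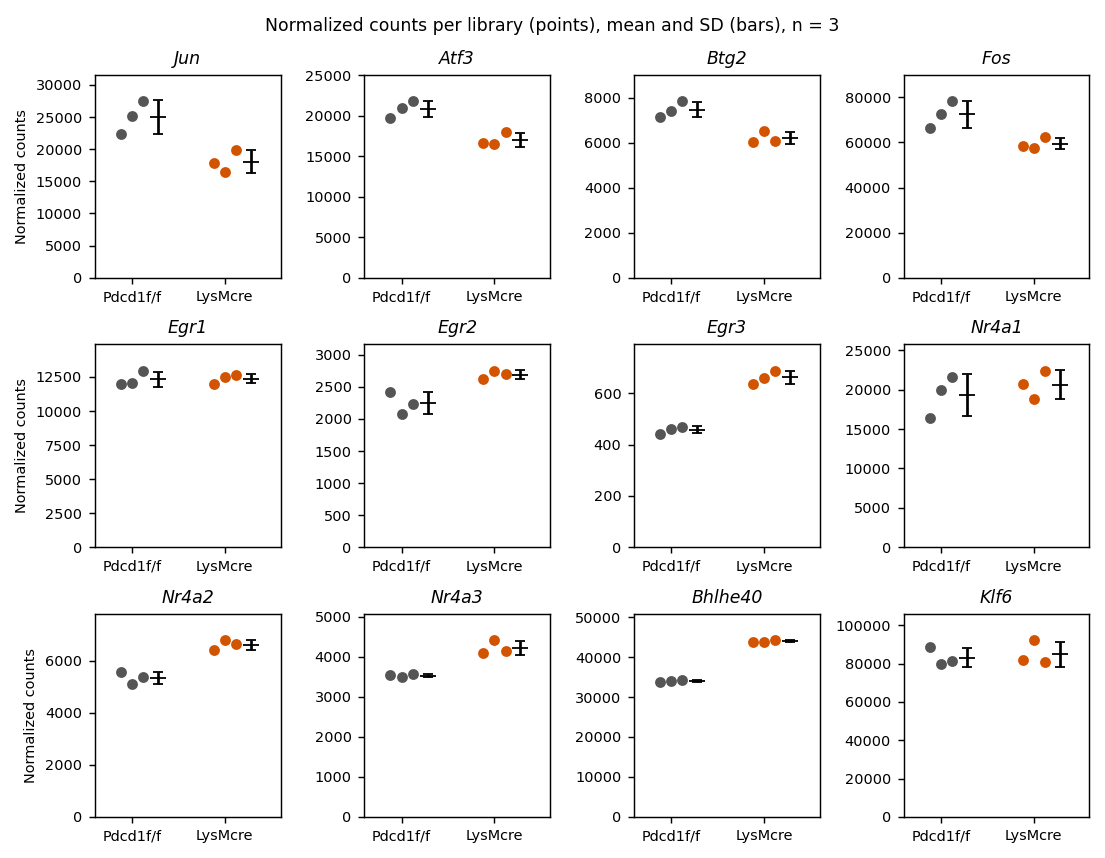
Normalized counts (vertical axes, each from 0) of 12 members in each library (points), with the mean and SD of the 3 libraries of a genotype beside them (LysMcre stands for Pdcd1f/fLysMcre). Egr3, Nr4a2, Nr4a3 and Bhlhe40 are higher and Jun, Atf3 and Btg2 lower with Cre without overlap, whereas Egr1, Nr4a1 and Klf6 overlap.

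Of the Jun family, Jun fell and Junb and Jund did not pass the test. Jun (ENSMUSG00000052684, chr4:95049034-95052222), the central partner in AP-1, had 22311, 25227 and 27488 normalized counts in Pdcd1f/f and 17790, 16434 and 19937 in Pdcd1f/fLysMcre TAMs. The lowest Pdcd1f/f library was above the highest library with Cre, and the fitted level with Cre was 0.72 times that without (log2 fold change −0.47, SE 0.09, adjusted p = 0.0167). Junb (chr8:84974484-84978718), which often opposes Jun, had 24578, 35878 and 41723 against 23860, 18678 and 28353 normalized counts. Its estimate was larger than that of Jun (−0.53, SE 0.18, adjusted p = 0.119), but Pdcd1f/f replicate 1 lay within the range of the other genotype. Jund (chr8:70698949-70700616), the most constitutive of the family, had 12508, 16380 and 18917 against 13559, 11620 and 15975 normalized counts and also overlapped (−0.21, SE 0.15, adjusted p = 0.399). Junb and Jund are GC-rich (62.6% and 67.1%), and both were lowest, within their genotypes, in the 2 libraries that stood apart by GC content. Without Pdcd1f/f replicate 1 they passed the test (Junb −0.72, adjusted p = 0.00257, and Jund −0.37, adjusted p = 0.0282), and with the GC and length offsets they did not (−0.32, adjusted p = 0.0875, and −0.01, adjusted p = 0.875). Over the 18 alternatives Junb passed in 5, with adjusted p from 1.1e-11 (genes of at least 1 count) to 0.352, and Jund in 2, with adjusted p from 0.0282 to 0.875.

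None of the 4 Fos family genes passed the test (1 higher and 1 lower at an unadjusted p under 0.05, 1 and 1 in DESeq2, 0 and 1 in limma), and their estimates differed in sign. Of all genes tested by each tool, 12.3% were higher and 11.9% lower at an unadjusted p under 0.05 in edgeR, 6.18% and 6.9% past the threshold in DESeq2, and 1.98% and 2.59% in limma. Fos (chr12:85473890-85477273), the prototype immediate-early gene, had 66544, 72384 and 78351 normalized counts in Pdcd1f/f and 58440, 57676 and 62390 in Pdcd1f/fLysMcre TAMs. The groups did not overlap, but the change fell just short of the threshold (log2 fold change −0.28, SE 0.07, adjusted p = 0.0508). Fosb (chr7:19302696-19310051) had 66863, 70135 and 72739 against 63745, 61854 and 65440 normalized counts, again without overlap and with a small difference (−0.13, SE 0.06, adjusted p = 0.21). Fosl1 (Fra-1, chr19:5447547-5455946), an AP-1 partner without the activation domain of Fos, lay on the other side, with 414, 416 and 405 against 525, 495 and 574 normalized counts. Its 3 Pdcd1f/fLysMcre libraries were above all others, and this too was just short of the threshold (0.37, SE 0.10, adjusted p = 0.0514). Fosl2 (Fra-2, chr5:32135801-32157842) had 28586, 28317 and 29818 against 27611, 27043 and 28880 normalized counts, which overlapped (−0.05, SE 0.06, adjusted p = 0.624). The ratio of Fos to Fosl1 normalized counts within a library was 161, 174 and 193 in Pdcd1f/f TAMs and 111, 116 and 109 in Pdcd1f/fLysMcre TAMs. Both Fos and Fosl1 passed the threshold with the GC and length offsets (−0.24, adjusted p = 9.6e-04, and 0.50, adjusted p = 0.00109) and in DESeq2 (adjusted p = 0.00794 and 0.0151).

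None of the 4 Klf genes passed the test in edgeR (1 higher and 1 lower at an unadjusted p under 0.05, 1 and 1 in DESeq2, 0 and 0 in limma). Over all genes tested by each tool, 2.42% were higher and 3.01% lower past the threshold in edgeR. The shares were 12.3% and 11.9% at an unadjusted p under 0.05 in edgeR, 6.18% and 6.9% in DESeq2, and 1.98% and 2.59% in limma. Klf6 (chr13:5861482-5870394), an abundant macrophage gene that promotes inflammatory polarization, had 88646, 79627 and 81410 normalized counts in Pdcd1f/f and 81721, 92355 and 80800 in Pdcd1f/fLysMcre TAMs (log2 fold change 0.03, SE 0.07, adjusted p = 0.825). Klf4 (chr4:55527143-55532466), which is tied to alternative activation, had 45214, 45272 and 47606 against 46264, 50205 and 47402 (0.06, SE 0.06, adjusted p = 0.566). For both genes the groups overlapped. Klf2 (chr8:72319033-72321656), which holds back NF-κB target genes, had 6640, 7907 and 8317 against 6277, 5786 and 6679 normalized counts. Pdcd1f/f replicate 1 was its only library without Cre to fall within the range of the others (−0.28, SE 0.09, adjusted p = 0.0914). Klf10 (chr15:38291463-38300706), a TGF-β-induced gene, had 6014, 5772 and 6069 against 6640, 6988 and 6711 normalized counts, without overlap (0.19, SE 0.06, adjusted p = 0.083).

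Among the other transcription factors, Bhlhe40 rose and Atf3 fell. Bhlhe40 (ENSMUSG00000030103, chr6:108660629-108666925), a basic helix-loop-helix repressor of Il10 that sustains macrophage proliferation and inflammatory function, had 33905, 34059 and 34244 normalized counts in Pdcd1f/f and 43896, 43788 and 44293 in Pdcd1f/fLysMcre TAMs. The libraries of a genotype were close to identical, and the genotypes were far apart. It rose from 34069 ± 169 (SD, n = 3) to 43992 ± 266 (SD, n = 3), a fitted increase of 29.3% (log2 fold change 0.37, SE 0.05, adjusted p = 0.00366), which was the smallest adjusted p of the 34. Atf3 (ENSMUSG00000026628, chr1:191170296-191218039), a stress-induced bZIP factor that dampens Toll-like receptor responses, had 19734, 20902 and 21806 against 16587, 16497 and 18012 normalized counts. The groups did not overlap, and the fitted level with Cre was 0.82 times that without (−0.29, SE 0.07, adjusted p = 0.0327). Nfil3, a bZIP repressor that also acts on Il12b, had 6423, 7216 and 7100 against 5788, 5869 and 5948 normalized counts without overlap (−0.23, SE 0.07, adjusted p = 0.0655). The small Maf proteins, which lack an activation domain, overlapped between genotypes (Maff −0.11, adjusted p = 0.44, and Mafk −0.17, adjusted p = 0.273). Myc, the growth regulator, and Csrnp1, an AXIN1-induced nuclear protein, also overlapped (0.05, adjusted p = 0.72, and −0.07, adjusted p = 0.722).

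Of the 10 genes for mRNA decay, growth restraint and stress, Btg2 fell and the other 9 did not pass the test in edgeR. At an unadjusted p under 0.05, 0 of the 3 mRNA decay genes were higher and 1 lower, and of the other 7, 1 and 3. DESeq2 called 0 and 0 of the 3, and 1 and 2 of the 7. Of all tested genes, 2.42% were higher and 3.01% lower past the threshold in edgeR. The shares were 12.3% and 11.9% at an unadjusted p under 0.05, and 6.18% and 6.9% in DESeq2. Btg2 (ENSMUSG00000020423, chr1:134075170-134079120), an antiproliferative partner of the CCR4-NOT deadenylase whose promoter with TGACGTCA is printed above, had 7169, 7412 and 7861 normalized counts in Pdcd1f/f and 6040, 6509 and 6102 in Pdcd1f/fLysMcre TAMs. The groups did not overlap, with a fitted level of 0.83 times (log2 fold change −0.26, SE 0.06, adjusted p = 0.0391). Its relative Btg1 lay the other way, with 48162, 47414 and 47243 against 54205, 59494 and 53059 normalized counts, without overlap and short of the threshold (0.23, SE 0.06, adjusted p = 0.0658 in edgeR). Btg1 passed in 7 of 18 alternatives, among them DESeq2 (adjusted p = 0.0197). Zfp36 (tristetraprolin) had 65262, 73114 and 78759 against 61802, 59185 and 64978 normalized counts, again without overlap (−0.22, SE 0.08, adjusted p = 0.117). Its paralog Zfp36l1 had all 3 Pdcd1f/fLysMcre libraries above the Pdcd1f/f libraries by a narrow margin (0.14, adjusted p = 0.259), and Zfp36l2 overlapped (−0.02, adjusted p = 0.87). Ier2 had 5878, 7021 and 7679 against 5645, 4980 and 5779 normalized counts without overlap (−0.32, SE 0.10, adjusted p = 0.0804 in edgeR). It passed in 8 of 18 alternatives, among them DESeq2 (adjusted p = 0.0248). Ier3 (−0.15, adjusted p = 0.318) and Ier5 (−0.13, adjusted p = 0.254) overlapped, as did Rhob, a small GTPase of endosomes (−0.26, adjusted p = 0.14), and Ppp1r15a (GADD34), which reverses the stress-induced block of translation (−0.18, adjusted p = 0.249).

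**Figure D3:**
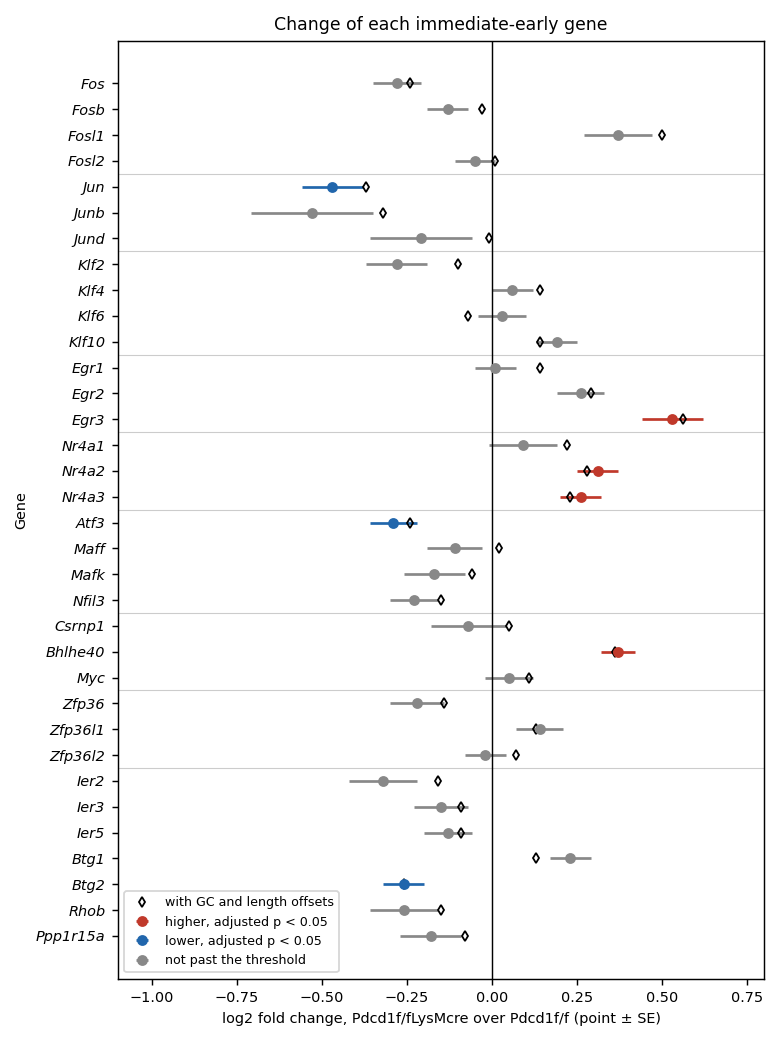
Fitted log2 fold change of Pdcd1f/fLysMcre over Pdcd1f/f TAMs (horizontal axis) for each of the 34 genes, as a point with its SE, with open diamonds for the estimate with GC and length offsets. Red points passed the threshold higher (4 genes), blue points passed it lower (3 genes) and gray points did not pass it (27 genes).

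The second question was how the AP-1/Klf genes compare with the Egr/Nr4a genes. Of the 11 AP-1/Klf genes, 0 were higher and 1 (Jun) was lower past the threshold, 4 estimates were above 0 and 7 below, and the median log2 fold change was −0.13. The groups were separated upward for 2 of the 11 (Fosl1 and Klf10) and downward for 3 (Fos, Fosb and Jun). Of the 6 Egr/Nr4a genes, 3 were higher and 0 lower, 6 of 6 estimates were above 0, 4 were separated upward and none downward, and the median was 0.26. Over all tested genes, 2.42% were higher and 3.01% lower past the threshold, and 14.1% and 13.1% were separated. At an unadjusted p under 0.05 in edgeR, 2 AP-1/Klf genes were higher and 4 lower, and 4 Egr/Nr4a genes were higher and 0 lower (12.3% and 11.9% of all tested genes). DESeq2 called 2 and 3 AP-1/Klf genes and 4 and 0 Egr/Nr4a genes in these directions, and limma 0 and 2, and 3 and 0, against 6.18% and 6.9% of all genes in DESeq2 and 1.98% and 2.59% in limma. Averaged over the genes of a group on the log2 CPM scale and set relative to the Pdcd1f/f mean, the Egr/Nr4a genes stood at −0.03, −0.02 and 0.05 without Cre and at 0.21, 0.25 and 0.28 with it. The AP-1/Klf genes stood at −0.11, 0.02 and 0.10 and at −0.13, −0.19 and −0.03, which overlapped. The difference of the averages, Egr/Nr4a minus AP-1/Klf, was 0.09, −0.03 and −0.05 without Cre and 0.34, 0.44 and 0.31 with it. It was thus larger in each library with Cre than in any without. The Jun family alone varied as much between libraries of a genotype (−0.31, 0.07 and 0.24, against −0.39, −0.62 and −0.17) as between genotypes. The ratio of Jun to Egr3 normalized counts was 50.3, 54.5 and 58.5 in Pdcd1f/f TAMs and 27.9, 24.9 and 28.9 in Pdcd1f/fLysMcre TAMs, a pair chosen after its values were seen. The groups of genes were chosen with results of these data known, so no test was made of the averages.

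**Figure D4:**
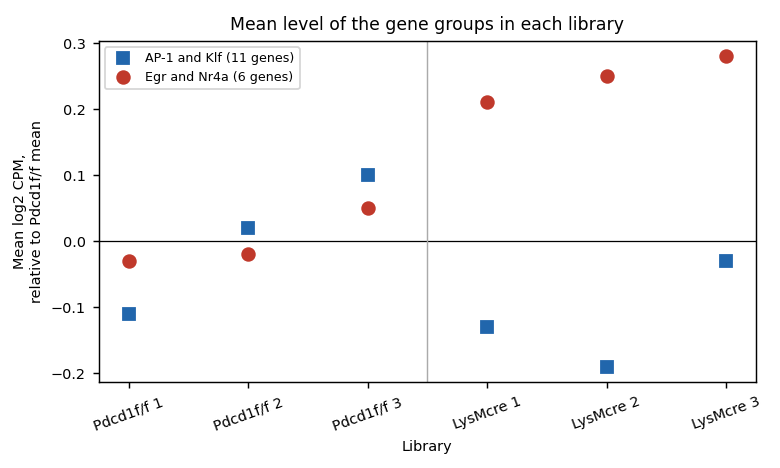
Mean log2 CPM of the 11 AP-1/Klf genes (squares) and the 6 Egr/Nr4a genes (circles) in each library, relative to the Pdcd1f/f mean (LysMcre stands for Pdcd1f/fLysMcre). The circles lie between −0.03 and 0.05 without Cre and between 0.21 and 0.28 with Cre, while the squares overlap between the genotypes.

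Within each genotype many members were lowest or highest in the same library. Of the 34 genes, 25 were lowest in Pdcd1f/f replicate 1 among the Pdcd1f/f libraries and 26 were highest in replicate 3, and 19 were lowest in Pdcd1f/fLysMcre replicate 2 and 24 highest in replicate 3. These are 73.5%, 76.5%, 55.9% and 70.6% of the members, against 41.6%, 34.2%, 39.9% and 35% of all 14469 tested genes. The members' transcripts had a GC content of 42.4% to 67.1%, with a median of 54.5% against 49.2% over all tested genes. Across the 34 genes, which are not independent replicates and share the libraries, the log2 fold change followed GC content with a Spearman rho of −0.48 (−0.36 over 14454 tested genes), and with the GC and length offsets rho over the members was −0.26. The Egr/Nr4a genes had a median GC content of 51.4% and the AP-1/Klf genes of 55.5%.

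The counts of calls depended on these libraries. With the offsets, 9 members were higher and 8 lower past the threshold, and with both libraries that stood apart left out, 8 were higher and 15 lower. Among all tested genes, 9.15% were higher and 8.89% lower with the offsets, and 12.5% and 13.6% with both left out. For the Egr/Nr4a genes the same settings gave 5 and 4 higher with 0 lower, and for the AP-1/Klf genes 2 higher and 2 lower, and 2 higher and 5 lower. The group medians were 0.26 and 0.26 for Egr/Nr4a and −0.03 and −0.15 for AP-1/Klf. In the 6 fits that leave out 1 library each, Bhlhe40 passed in 6 and Egr3 in 5, missing without Pdcd1f/f replicate 2 (adjusted p = 0.0507). Jun and Atf3 passed in 2, without Pdcd1f/f replicate 1 or Pdcd1f/fLysMcre replicate 3, and Btg2, Nr4a2 and Nr4a3 passed in 1, without Pdcd1f/f replicate 1. The highest adjusted p in these fits was 0.102 for Jun, 0.175 for Atf3, 0.174 for Btg2, 0.13 for Nr4a2 and 0.187 for Nr4a3. The sign of the change held in all of them for these 7 genes. With the offsets all 7 passed.

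**Figure D5:**
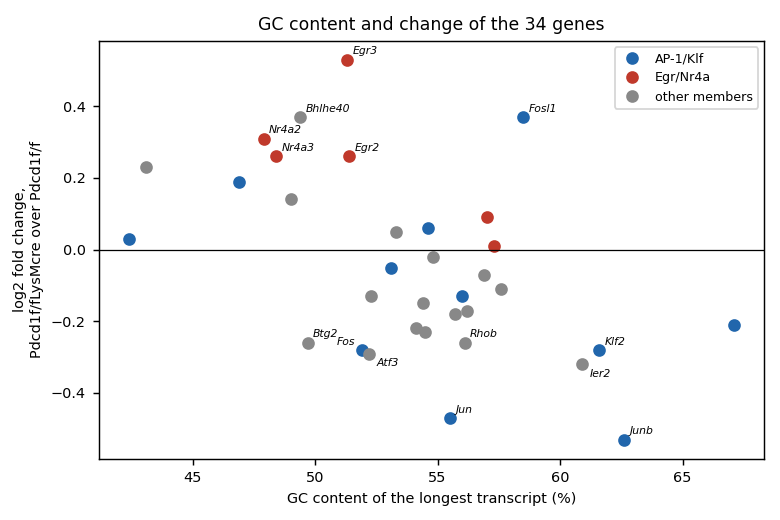
GC content of each member's longest transcript (horizontal axis, %) against its log2 fold change (vertical axis), with AP-1/Klf genes in blue, Egr/Nr4a genes in red and other members in gray. Egr3 (51.3%), Bhlhe40 (49.4%), Nr4a2 (47.9%) and Nr4a3 (48.4%) lie to the left of Junb (62.6%) and Klf2 (61.6%), and Fosl1 (58.5%) is the GC-rich gene with a positive estimate over 0.30.

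The upstream regulators of these genes were tested as a list of 20 (the serum response factor Srf and its partners, the CREB and MEF2 factors, the Egr corepressors Nab1 and Nab2, and Nfatc1 to Nfatc3). In edgeR 1 of the 20 was higher and 0 were lower past the threshold, with a median log2 fold change of 0.01. Of all tested genes, 2.42% were higher and 3.01% lower. At an unadjusted p under 0.05, 4 of the 20 were higher and 3 lower (12.3% and 11.9% of all tested genes). DESeq2 called 2 higher and 2 lower (6.18% and 6.9% of its genes), and limma 1 and 0 (1.98% and 2.59%). The gene that rose was Nfatc1, a calcineurin-dependent factor, with 17707, 18199 and 19260 normalized counts in Pdcd1f/f and 21900, 20953 and 22854 in Pdcd1f/fLysMcre TAMs (0.25, SE 0.06, adjusted p = 0.0441). It passed in 1 of 6 fits with a library left out, with adjusted p up to 0.22. Its relative Nfatc2 lay the other way, with 2116, 2259 and 2427 against 1900, 1852 and 1840 normalized counts, without overlap and just short of the threshold (−0.28, SE 0.07, adjusted p = 0.0514 in edgeR and 0.0108 in DESeq2). Nfatc3 lay on the side of Nfatc1, with 4788, 4072 and 4154 against 5120, 5274 and 5052 normalized counts, without overlap and short of the threshold (0.25, SE 0.07, adjusted p = 0.0724 in edgeR and 0.0331 in DESeq2). Srf had 2553, 3414 and 3938 against 3135, 2695 and 3295 normalized counts, with overlap (−0.12, SE 0.14, adjusted p = 0.644). Its cofactor Mrtfa had 1478, 1610 and 1714 against 1368, 1181 and 1408, without overlap and short of the threshold in edgeR (−0.28, SE 0.09, adjusted p = 0.0982, and 0.0469 in DESeq2). Nab1 was 6853, 6179 and 6100 against 7318, 7487 and 6935 (0.19, SE 0.07, adjusted p = 0.127), and Nab2 overlapped (−0.09, SE 0.12, adjusted p = 0.667).

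Relatives of the members outside the 34 were tested as a list of 14, of which 13 passed the expression filter and Egr4, with 1 to 6 counts per library, did not. In edgeR 0 of the 13 were higher and 3 were lower past the threshold (2.42% and 3.01% of all tested genes), with a median of −0.02. At an unadjusted p under 0.05, 4 were higher and 4 lower (12.3% and 11.9%). DESeq2 called 1 higher and 4 lower (6.18% and 6.9% of its genes), and limma 0 and 3 (1.98% and 2.59%). Batf, an AP-1 partner of Jun proteins, had 438, 423 and 450 normalized counts in Pdcd1f/f and 322, 240 and 299 in Pdcd1f/fLysMcre TAMs (−0.60, SE 0.12, adjusted p = 0.0189). Maf, a bZIP activator of Il10, had 9516, 8983 and 9204 against 7423, 8176 and 7480 (−0.26, SE 0.06, adjusted p = 0.0391). The genotypes did not overlap for either gene, and Batf passed in 3 and Maf in 2 of the 6 fits with a library left out. Heat shock genes, which respond to handling and to protein stress, summed to 325134, 314143 and 309448 normalized counts in Pdcd1f/f and 339030, 361730 and 342262 in Pdcd1f/fLysMcre TAMs. None of the 11 passed the threshold in either direction in edgeR. At an unadjusted p under 0.05, 4 were higher and 1 lower (12.3% and 11.9% of all tested genes). DESeq2 called 3 higher and 0 lower (6.18% and 6.9% of its genes), and limma 0 and 0 (1.98% and 2.59%). With the offsets 3 were higher and 0 lower (9.15% and 8.89% of all tested genes). The part of the heat shock genes in the differences of the immediate-early genes was not tested.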

How the data were processed

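RNA-seq of 6 TAM libraries was analysed, 3 for each genotype. The members and gene lists were chosen with earlier results of these data known. The authors prepared stranded polyA libraries, sequenced 42-nt paired-end reads, trimmed them with cutadapt 2.5, aligned them to GRCm38 with STAR 2.7.3a and deposited raw counts per Ensembl gene from featureCounts (Subread 1.6.2). The strand setting is not given in the sources used here. The authors also deposited a normalized signal, which is the count divided by a DESeq2 (version 1.24.0) size factor of 0.895 to 1.08 per library, and normalized counts in the text are on this scale. Names, positions, exon lengths and GC content came from GENCODE M21 (55240 of 55421 IDs matched).

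Raw counts were tested with edgeR 4.0.16 in R 4.3.3 (filterByExpr with a minimum count of 10, TMM, robust glmQLFit, glmQLFTest), with Benjamini-Hochberg adjustment over 14469 genes and a threshold of 0.05. The SE is the size of the log2 fold change over the root of its F statistic. Alternatives used DESeq2 1.42.0, Storey q-values, limma 3.58.1 on log2(value + 1), other scalings and filters, the replicate number as a block, loess offsets (span 0.5) on GC content and length, and left-out libraries. Leaving out both libraries that stood apart was chosen after the data were seen. All members were to be accounted for, with values per library for those past the threshold and for the Fos, Jun, Klf, Egr and Nr4a families, and by log2 fold change and adjusted p for the others. From the other lists, genes past the threshold were named, and Nfatc2, Nfatc3, Srf, Mrtfa, Nab1 and Nab2 were named after their values were seen. The fits were also run on simulated counts, drawn independently for each gene and library. These held no deviation linked to GC content, so the simulation does not cover that feature of the data. Libraries of a genotype differed by more than counting noise (chi-square of 5.42 to 43 per gene), and all were kept. Some genes of the marker and comparison lists are not reported here by name.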

Additional observations from a re-analysis of the deposited data

How the results depend on the processing

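With 3 libraries a genotype, calls near the threshold moved with the setting. Over the 34 members and 18 alternatives, 478 of 612 log2 fold changes kept their direction and side of the threshold, 24 lost and 88 gained significance, and 22 reversed. Of the 126 values for the 7 called genes, 102 kept direction and call, 24 lost significance and 0 reversed. The cause was not tested, except that leaving out a library lowers the number of samples.

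All tested genes past the threshold, 786 in the report, numbered 1951 with genes of at least 1 count, 1598 with DESeq2, 1875 with Storey q-values, 2607 with GC and length offsets, 2697 with offsets and the replicate block, 1027 with the block alone, 3757 without both libraries that stood apart, 283 at a threshold of 0.01 and 222 to 3181 with 1 library left out. Members, 4 higher and 3 lower, numbered in the same order 7 and 11, 8 and 7, 8 and 8, 9 and 8, 9 and 9, 4 and 6, 8 and 15, 2 and 0, and, with 1 library left out, 1 to 8 and 0 to 14. Egr/Nr4a genes higher, 3 in the report, numbered 5 with the offsets, with and without the block, 1 at 0.01 and 0 to 4 with 1 library left out. AP-1/Klf genes, 0 higher and 1 lower, numbered 1 and 5 with genes of at least 1 count, 1 and 2 with at least 10 counts in every library, 2 and 3 with DESeq2 or Storey q-values, 2 and 2 with the offsets, 2 and 3 with offsets and block, 0 and 3 with the block, 2 and 5 without both libraries that stood apart, 0 and 2 with RLE factors, library size alone or limma, 0 and 0 at 0.01, and 0 to 2 and 0 to 5 with 1 library left out. Each highest number with 1 library left out came without Pdcd1f/f replicate 1, and each lowest number of higher members without Pdcd1f/f replicate 2.

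Log2 fold changes that reversed were those of genes that were not called. With the offsets, with or without the block, these were Fosl2 (0.01), Klf6 (−0.07), Zfp36l2 (0.07), Csrnp1 (0.05) and Maff (0.02). Egr1 was −0.01 with library size alone, −0.03 without both libraries that stood apart and −0.02 to 0.04 with 1 library left out, and Myc was −0.01 without both and −0.01 to 0.09 with 1 left out. With 1 library left out, Nr4a1 ranged from −0.02 to 0.18, Klf6 from −0.03 to 0.07, Zfp36l2 from −0.05 to 0.00 and Csrnp1 from −0.19 to 0.02.

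The labels do not say that the replicate numbers pair the libraries. Deviations of same-numbered libraries from their genotype means correlated at −0.013, −0.097 and 0.220. Those of differently numbered libraries correlated at −0.254 to 0.235. These values cannot decide whether the libraries were prepared in pairs. Junb passed the threshold with the replicate block (−0.51, adjusted p = 0.0318) and with offsets and block (−0.32, adjusted p = 0.0118). Fos (−0.28, adjusted p = 0.0367) and Ier2 (−0.32, adjusted p = 0.0451) also passed with the block. At this depth and number of libraries, the SE of the members' log2 fold changes reached 0.18 (Junb), against 0.05 for Bhlhe40.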
